A study of Sus scrofa with 8 samples.

Results

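The endoplasmic reticulum (ER) and integrated stress response was followed in the liver of pigs with dietary nonalcoholic steatohepatitis (NASH) through 31 genes. They were taken by symbol from the 20430 genes of the expression table, and all 31 were found and measured. By role they were 13 chaperones and folding enzymes, 5 stress sensors and transcription factors, 6 genes of ER-associated degradation, and 7 targets of ATF4 or other outputs of the integrated stress response. All 24 animals, male pigs of a Large White x Landrace cross, ate a steatotic diet, rich in saturated fat, cholesterol, cholate and fructose and poor in methionine and choline, for a month. They were then split into 2 groups for another month, 12 pigs that stayed on this diet (control) and 12 that received it with 0.5% squalene (squalene), and were killed after an overnight fast. No group without the steatotic diet was measured, so the levels given here are those of 2 groups of animals that both had the disease. Polyadenylated liver RNA was sequenced in 4 pools per diet, each an equal mixture of RNA from 3 pigs, so each value averages its animals and the variation among single pigs was not measured.

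Secretory and membrane proteins are folded in the ER. When unfolded proteins build up there, the chaperone HSPA5 leaves the sensors ERN1 (IRE1), EIF2AK3 (PERK) and ATF6, which then raise the transcription of chaperones and of the machinery that sends misfolded proteins to the proteasome. EIF2AK3 belongs also to the integrated stress response, in which phosphorylation of the initiation factor eIF2 lowers translation in general and favours that of ATF4, a transcription factor of amino acid and redox genes. Hepatocytes secrete most plasma proteins and hold an extensive ER, and this response has been studied widely in fatty liver. The roles given below are those known from human and mouse cells.

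Sequences that tie these genes to the response are shown first, because they mark which members carry the known control elements in the pig genome. In the 300 bases before the annotated gene start, the ER stress response element ERSE, which reads CCAAT, any 9 bases and CCACG, was searched on both strands. It was found in 6 of 31 members and in 0.0778% of 16711 promoters of protein-coding genes. ERSE-II, which reads ATTGG, any 1 base and CCACG, was found in 4 members and in 0.102% of those promoters. These letters were first described in promoters of ER chaperone genes, so their presence in members was built into the choice. The sequences below are from the RefSeq genome of Sscrofa11.1 and read 5′ to 3′ along the strand of the gene, with the match in capitals. Where the capitals begin with CGTGG the match lies on the other strand.
*HSP90B1*, chr5:80531125-80531159, minus strand, ERSE: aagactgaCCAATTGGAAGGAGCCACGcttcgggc
*HSP90B1*, chr5:80531021-80531055, minus strand, ERSE: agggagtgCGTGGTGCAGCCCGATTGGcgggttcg
*CALR*, chr2:66102282-66102316, minus strand, ERSE: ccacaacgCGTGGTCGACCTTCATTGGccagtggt
*CANX*, chr2:78915948-78915982, minus strand, ERSE: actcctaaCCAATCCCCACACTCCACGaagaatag
*PDIA6*, chr3:125751909-125751943, plus strand, ERSE: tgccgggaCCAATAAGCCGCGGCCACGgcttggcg
*CRELD2*, chr5:716795-716829, minus strand, ERSE: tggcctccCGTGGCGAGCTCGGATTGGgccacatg
*XBP1*, chr14:46016582-46016616, minus strand, ERSE: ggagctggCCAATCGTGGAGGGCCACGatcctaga
*HYOU1*, chr9:46277170-46277196, minus strand, ERSE-II: ccgtatgaCGTGGGCCAATcggaagcc
*HYOU1*, chr9:46277061-46277087, minus strand, ERSE-II: gcctaggaCGTGGCCCAATgggagcgc
*SDF2L1*, chr14:50251744-50251770, minus strand, ERSE-II: ctcggaagCGTGGACCAATcataaccc
*MANF*, chr13:33658165-33658191, plus strand, ERSE-II: ccgaggcgCGTGGACCAATgggggcgc
*SEL1L*, chr7:104283346-104283372, minus strand, ERSE-II: ggtgagacCGTGGTCCAATcggaaaag
The 10 genes comprise 8 of the 13 chaperones and folding enzymes with the transcription factor *XBP1* and the degradation gene *SEL1L*. *HSP90B1* and *HYOU1* each held 2 matches. The letters TGACGTGG, the core of the XBP1 element UPRE, were found in *HYOU1*, where they overlapped its ERSE-II match by a few bases, and in 0.634% of all promoters. A match describes the letters and was not tested as a site of binding, and no match in this window says nothing of the other members.

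Among the targets of ATF4, the letters TGATGNAAT, one form of the element bound by ATF4 with C/EBP proteins, were found in 1 of 31 members, the promoter of *DDIT3*, and in 0.551% of all promoters. This sequence is shown because *DDIT3* (CHOP) is the member most often used to read the integrated stress response. The match lies on the other strand.
*DDIT3*, chr5:22790117-22790141, minus strand: tgccaaacATTGCATCAtccccgcc
*XBP1* carries a further element, in its coding exons, that the sensor ERN1 cuts. ERN1 removes a 26-base intron from *XBP1* mRNA between a pair of CNGCAG sites, and only the shortened mRNA encodes the potent transcription factor. A search of the pig coding exons for this pair at this distance found 1 position, with the intron in capitals.
*XBP1*, chr14:46012746-46012795, minus strand: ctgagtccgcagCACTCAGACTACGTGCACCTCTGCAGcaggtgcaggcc
The gene-level values below add both forms of *XBP1* mRNA, so they give its amount and not its processing. Likewise they do not show translation of *ATF4* or cleavage of ATF6.

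Expression was deposited as FPKM, fragments scaled to gene length and to the mapped total, which allows levels to be compared between genes. The summed FPKM was 543000 to 570900 per pool and 17204 to 17720 genes were above 0. The liver was recognised by its hepatocyte genes, with *ALB* at 24083 to 49354 FPKM. The summed level of B and plasma cell markers, of which plasma cells also have much ER, was 21.4 to 30.95 FPKM per pool. Squalene pool 1 stood apart from the other pools in interferon-stimulated genes, of which 12 summed to 6165 FPKM there against 849 to 1792 in the other 7 pools. Fragments counted for the members, in the authors' added estimates over the 4 pools of a diet, went from 281 on control and 311 on squalene for *CHAC1* to 84302 and 78934 for *HSP90B1*. In 7 members another gene of the annotation overlapped, such as *MARS* on the opposite strand of *DDIT3*, and no source used here states whether strand was used in counting, so reads of such pairs may not be told apart.

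No member differed between the diets beyond the spread of the pools. Of the 31 genes tested by limma on log2(FPKM + 0.1), 0 had an adjusted p under 0.05 by the method of Benjamini and Hochberg over all genes, against 0 of all 14780 genes tested (0.0%). An unadjusted p under 0.05 was reached by 1 member, *SESN2*, which was higher on squalene, and by 4.36% of all genes, 2.08% being higher on squalene. In 0 members did the 4 control pools and the 4 squalene pools fail to overlap, which was the case in 2.67% of all genes. The fitted difference was above 0 in 10 members and below 0 in 21, against 47.1% and 52.9% of all genes. This split rested on single pools, being 18 and 13 without control pool 1 and 4 and 27 without control pool 3. It was 5 and 26 without squalene pool 3 and 15 and 16 without squalene pool 4. The median difference over the members was −0.05 on the log2 scale, from −0.33 to 0.44, beside −0.01 over all genes. The 95% interval lay within 1.5-fold in either direction in 23 members and within 2-fold in 30, the exception being *ATF3*. Differences inside the interval of a gene were not excluded for it with 4 pools per diet, and every interval but that of *SESN2* included 0.

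**Figure D1:**
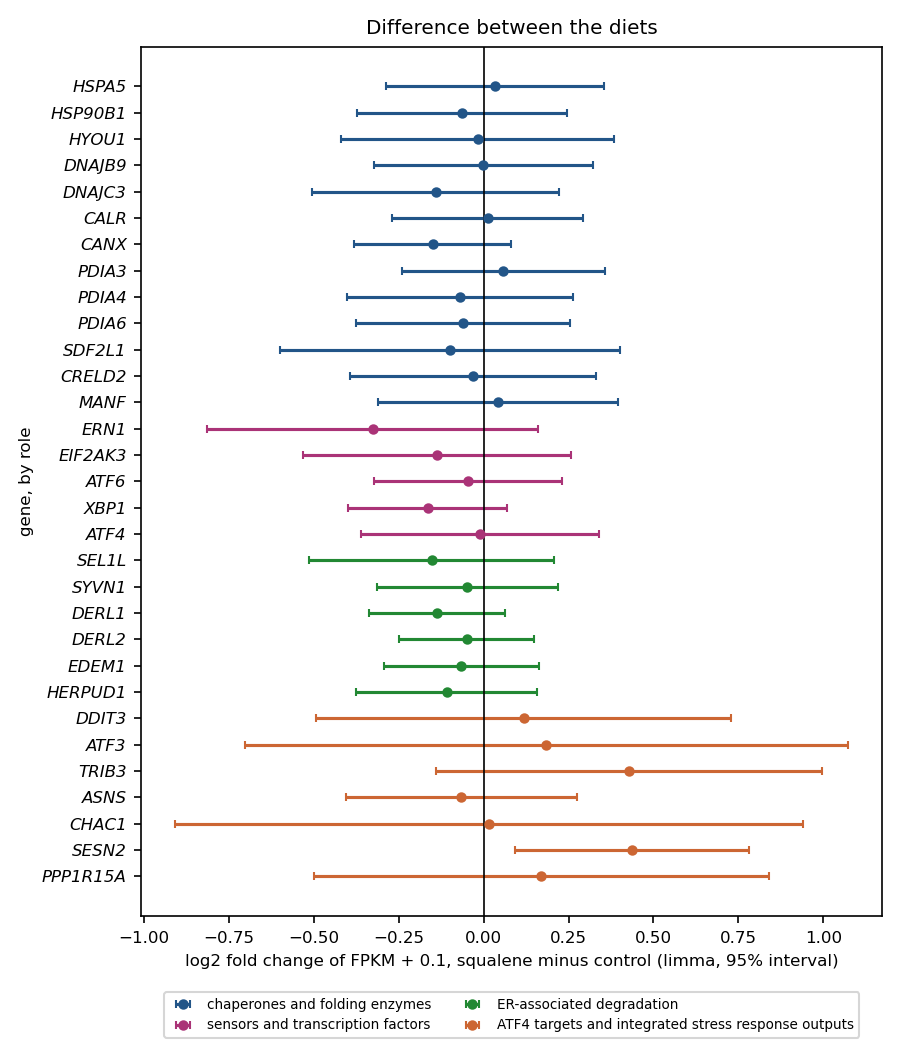
Difference between the diets for each of the 31 genes, ordered by role. Points are log2 fold changes of FPKM + 0.1, squalene minus control (limma), and bars are 95% intervals, with 4 pools per diet. The intervals of all genes but *SESN2* include 0, and those of the ATF4 targets reach farthest, from −0.91 to 1.07.

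The chaperones and folding enzymes were the most abundant members, and their levels were close on both diets. Together the 13 genes summed to 2009 ± 320.5 FPKM on control and 1969 ± 181 on squalene (SD, n = 4 pools each). Their median log2 fold change was −0.03, with 4 genes above 0 and 9 below, and 0 passed the test. *HSPA5* (BiP), the main Hsp70 chaperone of the ER and the brake on its sensors, had 366, 241, 242 and 288 FPKM in control pools 1 to 4 and 279.6, 282, 325 and 263 in squalene pools 1 to 4. The squalene pools all lay within the range of the control pools. The log2 fold change was 0.03 ± 0.14 (± standard error; limma, adjusted p = 0.9997). *HSP90B1* (GRP94), the Hsp90 of the ER, had 483, 355, 318 and 436 FPKM on control and 359, 377, 414 and 353 on squalene. Here too the highest and the lowest pool were control pools, and the log2 fold change was −0.07 ± 0.14 (limma, adjusted p = 0.9997).

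The lectin chaperones hold glycoproteins in the ER until they are folded. *CALR*, which encodes soluble calreticulin, had 279 ± 43.9 FPKM on control and 279 ± 21.1 on squalene (SD, n = 4 each). *CANX*, its membrane-bound relative calnexin, had 162, 139.8, 136 and 149 FPKM in the control pools and 142, 122, 145 and 120.1 in the squalene pools. Its highest pools were on control and its lowest on squalene, but the ranges overlapped, and its log2 fold change of −0.15 ± 0.10 did not pass the test (limma, adjusted p = 0.9997). *PDIA3*, the disulfide isomerase that works with both lectins, was more abundant than *HSPA5* in each of the 8 pools, with 377 ± 62.2 and 390 ± 38.1 FPKM (SD, n = 4 each). The other isomerases were *PDIA4*, with 175 ± 31.9 on control and 165 ± 21.9 on squalene, and *PDIA6*, which also damps the sensors, with 122 ± 14.7 and 117 ± 20.0 (SD, n = 4 each). Their log2 fold changes were −0.07 and −0.06.

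Partners of HSPA5 were lower in level and varied no less. *DNAJC3* and *DNAJB9*, J-domain proteins that direct HSPA5 to its clients, had 64.8 ± 13.9 and 28.4 ± 5.47 FPKM on control and 58.1 ± 8.15 and 28.1 ± 3.05 on squalene (SD, n = 4 each). *HYOU1*, the nucleotide exchange factor that resets HSPA5, had 21.6 ± 5.59 and 20.99 ± 3.33, and *MANF*, a secreted ER protein released on stress, had 75.95 ± 13.6 and 78.3 ± 13.5 (SD, n = 4 each). *SDF2L1*, a component of a J-protein complex, had 25.6, 19.9, 19.3 and 30.7 FPKM on control and 19.7, 26.2, 29.9 and 14.9 on squalene. It had the largest range of the 13 genes, a 2.07-fold span across the pools, with its highest value in control pool 4 and its lowest in squalene pool 4. *CRELD2*, an ER protein with isomerase activity, had 14.3 ± 1.85 FPKM on control and 14.1 ± 2.77 on squalene (SD, n = 4 each), with its lowest value, 10.04 FPKM, again in squalene pool 4. None of the 13 genes had an unadjusted p under 0.05 (limma). Leaving out control pool 1 or control pool 3 changed these small differences, with 9 genes above 0 and 4 below without control pool 1 and all 13 below, at a median of −0.13, without control pool 3. Squalene pools mattered as well. All 13 were below 0 without squalene pool 3, and 8 were above and 5 below without squalene pool 4.

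The 10 members with ERSE or ERSE-II in the sequences above gave fitted differences of −0.17 to 0.04 on the log2 scale, 2 above 0 and 8 below. *XBP1* was at the lower and *MANF* at the upper end of this range.

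The sensors and their transcription factors were all fitted below 0 on squalene, without passing the test. With 1 pool left out, all 5 genes stayed below 0 for control pools 2 and 3 and squalene pools 1 and 2. In the other cases 1 to 3 of them were above 0, *ATF4* in each, *ATF6* also without control pool 1 or squalene pool 4, and *EIF2AK3* without squalene pool 4. With size factors *ATF4* was above 0 as well. *ERN1*, the kinase and nuclease of the oldest branch, had 8.98, 9.36, 4.43 and 6.44 FPKM in the control pools and 5.17, 5.24, 5.34 and 6.61 in the squalene pools. The control pools spanned the squalene pools, with 2 of them higher than any squalene pool and control pool 3 lower than all. The log2 fold change was −0.33 ± 0.22 (limma, adjusted p = 0.9997). Without control pool 3 it was −0.54 ± 0.16 (limma, adjusted p = 0.958). *EIF2AK3*, the kinase of eIF2 at the ER, was the least abundant of these genes, with 2.89, 2.99, 2.11 and 2.44 FPKM on control and 2.94, 2.43, 2.42 and 1.73 on squalene. *ATF6*, which is cut in the Golgi to free a transcription factor, had 16.1 ± 2.16 and 15.5 ± 1.65 FPKM (SD, n = 4 each).

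*XBP1*, the substrate of ERN1, was an abundant mRNA with 188, 158, 163 and 185 FPKM on control and 171, 160.8, 152 and 136 on squalene. Control pools 1 and 4 were above all squalene pools and control pools 2 and 3 within their range. The log2 fold change was −0.17 ± 0.11, with a 95% interval of −0.40 to 0.07 (limma, adjusted p = 0.9997). *ATF4* had 107 FPKM in control pool 1, 95.7 in control pool 4, 70.6 and 67.2 in control pools 2 and 3, and 95.6, 82.7, 77.9 and 76.4 in squalene pools 1 to 4. The squalene pools lay inside the control range, and the log2 fold change was −0.01 ± 0.16. Levels within the group went from 2.61 ± 0.409 FPKM for *EIF2AK3* to 174 ± 15.3 for *XBP1* on the control diet (SD, n = 4 each).

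Genes of ER-associated degradation were the steadiest members. *SEL1L* and *SYVN1* (HRD1), the adaptor and the ubiquitin ligase of the main export complex, had 24.7 ± 5.06 and 20.3 ± 3.01 FPKM on control and 21.9 ± 2.62 and 19.5 ± 1.30 on squalene (SD, n = 4 each). *DERL2*, a membrane protein of the same complex, had 11.5 ± 0.403 FPKM on control and 11.11 ± 0.678 on squalene (SD, n = 4 each), with all 8 pools between 10.5 and 12.03. No other member varied so little between pools, its SD of log2 values within a diet being 0.07, at percentile 1.37 of the 11041 genes that averaged 1 FPKM or more. *DERL1*, a related protein, had 33.5, 27.9, 31.4 and 30.4 FPKM on control and 29.7, 26.9, 27.6 and 27.6 on squalene. In this gene 3 control pools were above all squalene pools and only control pool 2 fell among them, with a log2 fold change of −0.14 ± 0.09 (limma, adjusted p = 0.9997). Without control pool 2 or squalene pool 1 the pools did not overlap, and the adjusted p was still at least 0.955 in every alternative. With a pool left out the remaining pools separate more readily, and the share of all genes that did so was not taken.

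*EDEM1*, which helps to pick glycoproteins for degradation, had 38.5 ± 3.08 and 36.8 ± 3.54 FPKM, and *HERPUD1*, a scaffold of the export complex that is itself induced by ER stress, had 53.95 ± 4.83 and 50.3 ± 7.61 (SD, n = 4 each). All 6 genes of the group were fitted below 0, at −0.05 to −0.15, with a median of −0.09, and 0 passed the test. *SYVN1* was above 0 without control pool 1 or control pool 2. *SEL1L* went from −0.15 to −0.31 without control pool 3, where its pools did not overlap (limma, adjusted p = 0.958). Their sum was 179.7 ± 14.5 FPKM on control and 168 ± 6.91 on squalene (SD, n = 4 each).

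The ATF4 targets and outputs of the integrated stress response had low levels and the widest spread. *SESN2*, a sestrin that restrains mTORC1 when amino acids are short, was the member with the smallest p. It had 7.31, 4.54, 4.79 and 5.76 FPKM in control pools 1 to 4 and 7.46, 7.83, 6.57 and 8.18 in squalene pools 1 to 4. Control pools 2 to 4 were below all squalene pools, whereas control pool 1 was higher than squalene pool 3. The log2 fold change was 0.44 ± 0.15, with a 95% interval of 0.09 to 0.78, or 1.35-fold (limma, adjusted p = 0.9997). It did not pass the test across all genes, and 1 of 31 members at this unadjusted p is 3.23%, beside the 4.36% of all genes given above. Without control pool 1 the log2 fold change was 0.57. *SESN2* no longer had an unadjusted p under 0.05 without control pool 2, at 0.35, or without control pool 3, at 0.37. Without control pool 3 the members at this unadjusted p were *ERN1* and *SEL1L*. The share of all genes at this unadjusted p in fits with a pool left out was not taken.

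*TRIB3*, a pseudokinase that is induced by ATF4 and DDIT3, had 5.45, 3.10, 2.33 and 5.69 FPKM on control and 5.12, 5.46, 5.53 and 4.90 on squalene. The squalene pools were close together, control pools 2 and 3 were below all of them, control pool 1 lay within their range and control pool 4 just above it. The log2 fold change was 0.43 ± 0.26 (limma, adjusted p = 0.9997). It was 0.19 without control pool 3, and it had an unadjusted p under 0.05 without control pool 1, at 0.59, or without control pool 4, at 0.61. *ASNS*, asparagine synthetase, a classical target of the response to amino acid shortage, had 21.2, 17.7, 16.0 and 23.5 FPKM on control and 17.2, 17.6, 16.4 and 23.6 on squalene. It was the only gene of this group fitted below 0, at −0.07 ± 0.15.

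*DDIT3* (CHOP), the transcription factor tied to cell death under lasting ER stress, had 22.1, 14.7, 10.2 and 10.7 FPKM on control and 21.0, 13.3, 17.1 and 10.3 on squalene. Each diet held a pool at more than 20 and a pool at about 10 FPKM, and the log2 fold change was 0.12 ± 0.27. *ATF3*, a stress-induced repressor of transcription, had 31.6, 18.3, 14.4 and 15.8 FPKM on control and 14.1, 11.6, 36.8 and 36.6 on squalene. The highest and the lowest 2 values of this gene were thus all from squalene pools. *PPP1R15A* (GADD34), the subunit that brings a phosphatase to eIF2 and ends the response, had 14.9, 9.17, 6.92 and 6.83 FPKM on control and 8.64, 6.48, 15.3 and 12.1 on squalene. *CHAC1*, an enzyme that degrades glutathione, had 4.01, 1.99, 1.63 and 2.07 FPKM on control and 1.21, 1.78, 2.35 and 5.47 on squalene, and its 4.52-fold span across the pools was the largest of the 31 genes. For these 3 genes control pool 1 and squalene pools 3 and 4 were the highest 3 of the 8 pools, in varying order, and their log2 fold changes were 0.18 ± 0.40, 0.17 ± 0.30 and 0.01 ± 0.42 (limma, adjusted p = 0.9997 each).

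**Figure D2:**
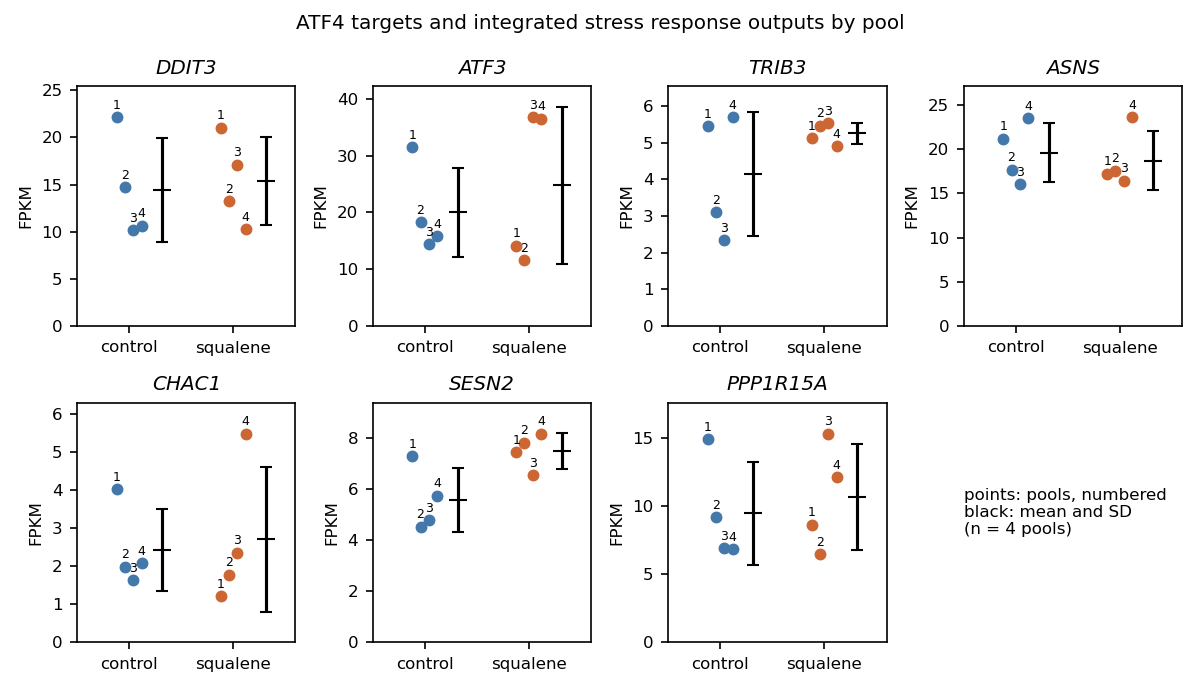
FPKM of the 7 ATF4 targets and outputs of the integrated stress response in each pool, numbered by pool, with the mean and SD of 4 pools per diet in black. *SESN2* overlaps only through control pool 1 (7.31 FPKM) and squalene pool 3 (6.57 FPKM), and *ATF3* splits the squalene pools into 36.8 and 36.6 against 14.1 and 11.6 FPKM.

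Some genes of the immediate-early response, whose transcription is known to rise quickly on a stimulus, moved with part of this spread. The list of 8 such genes was chosen after the values were seen. It summed to 284 and 308 FPKM in squalene pools 3 and 4, 174 and 154 in squalene pools 1 and 2, and 223 to 238 in the control pools. *BTG2* had 71.0 and 91.3 FPKM in squalene pools 3 and 4, beside 37.4 and 41.9 in squalene pools 1 and 2 and 47.0 to 63.4 in the control pools, whereas *IER3* was as high in squalene pool 1, with 27.0, as in squalene pool 3, with 27.2. Control pool 1, which was high in *ATF3*, *PPP1R15A* and *CHAC1*, had the highest *FOSB*, 7.11 FPKM against 0.19 to 2.68 in the other pools, but not a high sum. *IER2* was also highest there, with 10.6. *EGR1* was not, with 14.4 against 22.6 to 23.0 in the other control pools. *FOS* had 9.29 there and was highest in control pool 3, with 22.8. In squalene pools 3 and 4 *EGR1* had 21.5 and 18.8 and *FOS* 20.1 and 12.4. In squalene pools 1 and 2 *EGR1* had 5.97 and 10.25 and *FOS* 3.86 and 3.93. The part of the immediate-early genes in the values of *ATF3*, *PPP1R15A* and *CHAC1* was not tested.

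Members deviated together in single pools of a diet. For each gene the deviation of each pool from its mean of log2(FPKM + 0.1) over the 8 pools was taken. In control pool 1 all 31 members were above their mean, with a median deviation of 0.23, and this pool was the highest of the 8 for 16 of them. In control pool 3 the median was −0.27, 29 of 31 members were below their mean, and the pool was the lowest for 14. These pools were from the same diet, and of all genes tested 67.9% were above their mean in control pool 1, with a median of 0.08, and 63.3% below it in control pool 3, with a median of −0.07. On squalene, pool 3 had 23 members above their mean, with a median of 0.12, and pool 4 had 23 below, with a median of −0.12. Of all genes 47.8% were above their mean in squalene pool 3, with a median of −0.01, and 61.6% below it in squalene pool 4, with a median of −0.06.

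**Figure D3:**
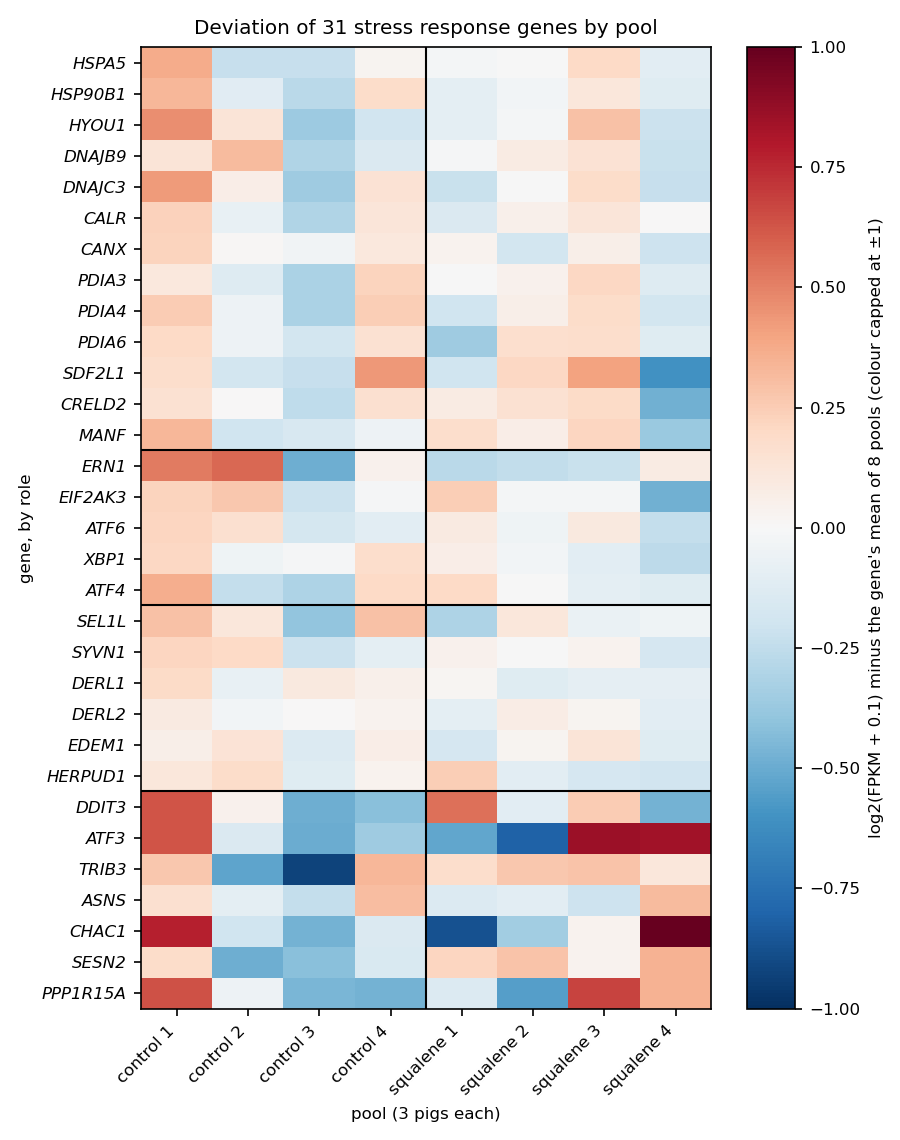
Deviation of log2(FPKM + 0.1) from the mean of the 8 pools for each gene (rows, by role) and pool (columns), with colours capped at 1 in either direction. Control pool 1 is above the mean in all 31 genes and control pool 3 below it in 29, while no group of genes separates the 4 control from the 4 squalene pools.

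By role, the 13 chaperones and folding enzymes were all above their mean in control pool 1 and in squalene pool 3, with medians of 0.23 and 0.19, and all below it in control pool 3, with a median of −0.27. Squalene pool 4 had 12 of the 13 below the mean, with a median of −0.21. The ATF4 targets did not follow them there. Squalene pool 4 had 6 of the 7 targets above their mean, with a median of 0.35, while *DDIT3* was low at 10.3 FPKM. In control pool 1 the targets had their highest median, 0.63, and in control pool 3 their lowest, −0.47. The sensors and transcription factors had medians of 0.23 in control pool 1, −0.21 in control pool 3 and −0.24 in squalene pool 4. The genes of ER-associated degradation kept to medians between −0.13 and 0.16.

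**Figure D4:**
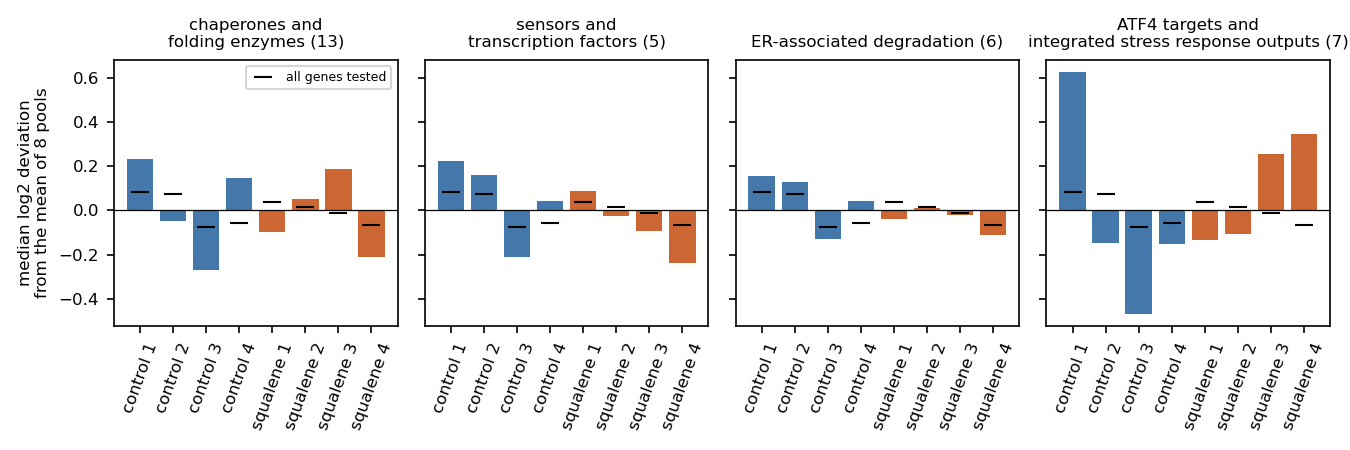
Median log2 deviation of each role group from its mean over the 8 pools (bars, coloured by diet, with the number of genes in brackets) beside that of all genes tested (black marks). The bars range from −0.47 in control pool 3 to 0.63 in control pool 1, both among the ATF4 targets.

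Other measures moved with some of these pools. *ALB*, the most abundant hepatocyte mRNA, had 24882, 24083, 49218 and 36186 FPKM in control pools 1 to 4 and 43948, 46640.05, 27953 and 49354 in squalene pools 1 to 4. It was thus low in control pool 1 and squalene pool 3, where the chaperones were high, and high in control pool 3 and squalene pool 4, where they were low. But *ALB* was also low in control pool 2, whose chaperones had a median deviation of −0.05. It was high in squalene pool 2 as well, whose chaperones had a median deviation of 0.05. Of the other hepatocyte markers, *APOA1*, *TTR*, *TF* and *CPS1* were also lower in control pool 1 than 3 and in squalene pool 3 than 4. *HNF4A* had 77.2 and 45.3 FPKM in control pools 1 and 3, the reverse order, and 52.85 and 61.8 in squalene pools 3 and 4. *SERPINA1* had 1558 and 2077 in control pools 1 and 3, but 1214 and 1090 in squalene pools 3 and 4. The hepatocyte markers were thus divided. The members took 0.548% of the summed FPKM in control pool 1, 0.503% in squalene pool 3 and 0.371% to 0.484% in the other pools. Plasma cells also express ER chaperones strongly. The markers of B and plasma cells summed to 25.0 FPKM in control pool 1 and 23.4 in control pool 3. In squalene pools 3 and 4 the sum was 21.4 and 23.4, and it was highest in control pool 2 and squalene pool 1, with 30.5 and 30.95. *JCHAIN* and *MZB1*, genes of this list, had 12.9 to 22.5 and 1.04 to 2.60 FPKM over all pools. The summed level of 8 macrophage markers was 1246 FPKM in control pool 1 and 1486 in control pool 3, but 1241 in squalene pool 3 and 1228 in squalene pool 4, so it did not follow the chaperones there. In bulk liver, fewer cells of a type and less RNA per cell cannot be told apart. The part of liver composition in the pattern of the pools was not tested.

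Measured against other genes, the spread of the members depended on their role. The SD of log2 values within a diet had a median of 0.24 over the 31 members, beside 0.20 over those 11041 genes, and 21 members were above their 50th percentile. All 7 ATF4 targets were above it, at percentiles of 64.2 to 98.1, with *CHAC1* and *ATF3* at the top. Of the 13 chaperones and folding enzymes 10 were above it. Of the 6 genes of ER-associated degradation only *SEL1L* was, and their median percentile was 26.2. The standard errors of the fold changes followed, from 0.09 for *DERL2* and *DERL1* to 0.42 for *CHAC1*.

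Further genes of the same pathways, which were not members, were looked at too. Since 0 of all 14780 genes tested (0.0%) passed, 0 passing in a list is not particular to these pathways. Of 20 other ER folding genes tested, 0 passed the test, 6 were fitted above 0 and 14 below, and the median log2 fold change was −0.04. The first of them by p was *SIL1*, a nucleotide exchange factor of HSPA5, with 27.5, 22.4, 21.0 and 27.5 FPKM on control and 28.5, 34.3, 25.8 and 29.9 on squalene (limma, log2 fold change 0.27, adjusted p = 0.9997). Only squalene pool 3 fell among the control pools. *TXNDC5*, a disulfide isomerase, and *DNAJC10*, a disulfide reductase, followed with log2 fold changes of −0.16 and −0.17.

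Of 19 other sensors and regulators of translation tested, 0 passed, with 8 above 0 and 11 below and a median of −0.03. *NUPR1*, a small stress-induced nuclear protein and the first of these by p, had 391 to 520.1 FPKM on control and 440 to 706 on squalene (limma, log2 fold change 0.27, adjusted p = 0.9997). *CREB3L2*, an ER-bound transcription factor, and *EIF2S1*, the subunit of eIF2 that is phosphorylated, had log2 fold changes of −0.16 and 0.18. Of 20 other genes of ER-associated degradation tested, 0 passed, with 5 above 0 and 15 below and a median of −0.03. *AUP1*, *RNF5* and *EDEM3*, a recruiter of ubiquitin-conjugating enzymes, a ligase and a mannosidase, had the smallest p and log2 fold changes of −0.12, −0.12 and −0.13.

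The 21 other ATF4 targets are the closest comparison for the 7 members of that group, and 0 of them passed, with 9 above 0 and 12 below. Their median log2 fold change was −0.08, whereas it was 0.17 over the 7 members, of which 6 were above 0. The latter median was 0.01 without squalene pool 3 and 0.41 without control pool 1, and 4 of the 7 were above 0 without control pool 3, squalene pool 3 or squalene pool 4. *SLC7A11*, the cystine carrier, had 0.42 to 0.69 FPKM on control and 0.65 to 0.90 on squalene (limma, log2 fold change 0.36, adjusted p = 0.9997). *EPRS*, a tRNA synthetase, had a log2 fold change of −0.28 and *SLC7A5*, a carrier of large amino acids, 0.33. Both directions thus occurred among the targets, and the difference between these 2 lists was not tested.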

How the data were processed

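Polyadenylated liver RNA was sequenced on the DNBSEQ platform. Per the study's methods, HISAT2 mapped the clean reads to Sscrofa11.1, and the authors deposited FPKM values for every gene in each pool. The step from alignments to FPKM was described by reference to earlier work not read here. The authors also deposited estimated counts, summed over the pools of each diet, which served here only to show depth. Their DEGseq fold changes and p-values were not used. Diets and pool numbers came from the sample labels. Expression on a log2(FPKM + 0.1) scale was compared by limma 3.58.1 (R 4.3.3; linear model, empirical Bayes with a variance trend), for 14780 genes averaging 0.1 FPKM or above and with no block. P-values were adjusted by Benjamini and Hochberg over all of them, with a threshold of 0.05. The pseudocount understates changes of genes with low FPKM. The test was checked on simulated data with known changes. These were larger than any fitted for a member, and the simulated pools did not shift together. The check thus does not cover differences as small as those of the members. FPKM carry no depth per pool, so no counting interval is given. The 31 members were found by symbol. Members, lists and tests were chosen with earlier results of these data known. Named genes are all members and the 3 genes of smallest p in each list of further pathway genes. Sequences were read from the RefSeq genome of Sscrofa11.1 with samtools 1.23.1 and summarised in Python 3.11.15 (pandas 2.3.3, numpy 2.4.6, matplotlib 3.10.9). Alternatives covered the pseudocount, filter, scaling, variance trend, a block for the pool number and each pool left out.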

Additional observations from a re-analysis of the deposited data

Results flagged for a closer look

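In 2 of 62 groups of 4 pools, 3.23%, one pool lay far from the other 3 by Dixon's criterion, where chance gives about 5%. *ERN1* had 6.61 FPKM in squalene pool 4, against 5.17 to 5.34 in the other squalene pools. *ASNS* had 23.6 FPKM in the same pool (23.61), against 16.4 to 17.6 in the others, a level also reached by control pool 4 with 23.5.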

How the results depend on the processing

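No member passed the test under any of the 18 alternatives (limma, smallest adjusted p 0.733, for *SESN2* without control pool 1 and squalene pool 1). The number at an unadjusted p under 0.05 was 0 to 2 with a pool left out, and the number of members whose pools did not overlap was 0 to 1. With control pool 1 and squalene pool 1 both left out, a choice made after seeing the data, the pools of 2 members did not overlap, *DERL1* and *SESN2*. The shares of all genes in fits with pools left out were not taken, and fewer pools separate more readily. These counts thus have no background beside them and are not read as a result about the members. Scaling turned the sign of *DNAJB9*, to 0.005908 as TPM and 0.01168 with size factors, and of *ATF4*, to 0.002096 with size factors. Leaving out pools, singly or the 2 first pools together, turned the sign of 21 of 31 log2 fold changes, which then went from −0.03945 to 0.1738 for *HSPA5*, −0.1672 to 0.05522 for *HSP90B1*, −0.1406 to 0.1626 for *HYOU1*, −0.1029 to 0.1037 for *DNAJB9*, −0.2825 to 0.02701 for *DNAJC3*, −0.08668 to 0.141 for *CALR*, −0.03877 to 0.1421 for *PDIA3*, −0.1866 to 0.06053 for *PDIA4*, −0.1323 to 0.1013 for *PDIA6*, −0.2485 to 0.08631 for *SDF2L1*, −0.1202 to 0.1247 for *CRELD2*, −0.02243 to 0.1725 for *MANF*, −0.2427 to 0.001387 for *EIF2AK3*, −0.1129 to 0.02581 for *ATF6*, −0.1158 to 0.1081 for *ATF4*, −0.1281 to 0.01538 for *SYVN1*, −0.04721 to 0.3469 for *DDIT3*, −0.06843 to 0.6306 for *ATF3*, −0.1827 to 0.02543 for *ASNS*, −0.3884 to 0.5697 for *CHAC1* and −0.0288 to 0.485 for *PPP1R15A*. *SESN2* kept its sign at 0.35 to 0.57, *TRIB3* at 0.19 to 0.61 and *ERN1* at −0.54 to −0.17. The sign was also kept, always below 0, by *CANX*, *XBP1*, *SEL1L*, *DERL1*, *DERL2*, *EDEM1* and *HERPUD1*. Of these, *SEL1L* reached −0.003561 and *DERL2* −0.005063. A replicate block on the pool number left 0 members called and 1 at an unadjusted p under 0.05, with a smallest adjusted p of 0.964 (limma). Deviations of pools of one number had correlations of −0.07 to 0.09 over all genes, and 2 of 4 control pools matched their own number best. These few values cannot settle whether the number pairs pools. Limits are 4 pools per diet, the pooling of 3 pigs and no depth per pool.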

Other observations

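The deposited tables also list sites of single nucleotide polymorphism (SNP), with 1 base letter per site and pool, and these describe the members without entering the comparison of the diets. Of 269579 sites, 559 lay within the members, 277 of them in exons and 95 in coding exons. In 5 members no exonic site was listed (*DNAJC3*, *CALR*, *XBP1*, *ATF4* and *DDIT3*), whereas *ERN1* held 42. At 100 of the exonic sites all 8 pools carried a base other than the reference. In 4 members, *HSP90B1*, *PDIA6*, *MANF* and *PPP1R15A*, every exonic site was non-reference in all pools, and in the other 22 with an exonic site at least 1 was not.

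Counts for 3 members show how such sites varied between pools, without regard to diet. Of 21 exonic sites in *TRIB3*, 5, 1, 11 and 15 were non-reference in control pools 1 to 4 and 0, 0, 18 and 2 in squalene pools 1 to 4. Of 18 in *SESN2*, the numbers were 16, 11, 15 and 2 and then 1, 17, 2 and 14. *PDIA4* had 11 such sites, of which squalene pool 2 carried 0 and squalene pool 4 all 11. Each pool mixes 3 pigs and shows 1 letter per site, so alleles within a pool were not told apart, and no relation to expression was tested. None of the 61 splicing events in the deposited tables of A3SS, A5SS, MXE and SE lay in a member. The 26-base intron of *XBP1* is not cut by the spliceosome and was not analysed here.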
